A study of Homo sapiens with 6 samples.

Results

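F-box and Kelch-like proteins choose the substrates of cullin-RING ubiquitin ligases, and this account follows their transcripts in RNA that came down with the RNA-binding protein Stau1 in mitotic human cells. The transcripts were taken by symbol as every array target named FBXO, FBXL, FBXW or KLHL followed by a digit. This gave 96 of the 37879 targets on the array, of which 37 were FBXO, 19 FBXL, 9 FBXW and 31 KLHL. Of the 96 symbols, 92 are current in the RefSeq gene table, 3 are older names and 1 was not matched. The older names are FBXL10, now KDM2B, FBXO18, now FBH1, and FBXL21, now the pseudogene FBXL21P. FBXO22OS, the unmatched symbol, names an RNA from the opposite strand of FBXO22 and not an adaptor, and it was kept because the symbol rule takes it.

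HEK293T cells, a transformed line from human embryonic kidney, were transfected with a plasmid for Stau1-55 carrying a FLAG tag (the Stau1 IP, n = 3) or with the empty vector (the control IP, n = 3). Both groups were held in prometaphase with nocodazole, which blocks spindle assembly, and the labels give 15 h at 50 ng/ml. The paper's methods give the same concentration but a longer time for HEK293T cells. Lysates of both were precipitated with the same anti-FLAG antibody, and the RNA that came down was measured on 6 Illumina BeadChips. The tagged protein was expressed from a plasmid in addition to the Stau1 of the cells, the labels do not say whether the 3 samples of a group came from separate cultures, and p-values then measure only the spread between these samples.

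An F-box protein holds SKP1 through its F-box and so joins the CUL1 scaffold, while the rest of the protein binds the substrate. FBXW proteins bind substrates through WD repeats, FBXL proteins through leucine-rich repeats, and FBXO proteins carry other domains. Kelch-like proteins bind CUL3 directly through a BTB domain and use a Kelch propeller for the substrate. NEDD8 attached to the cullin activates the ligase and the COP9 signalosome removes it again. Several of these adaptors act on regulators of mitosis, among them Emi1 (FBXO5), which restrains the anaphase-promoting complex, and KLHL9, KLHL13 and KLHL21, which direct CUL3 to Aurora B.

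The arrays detected between 11635 and 13054 of all targets each, a target counting as detected where its deposited detection p, its rank among the negative controls, was under 0.05. The markers of HEK293T cells were present, with 5 of 6 detected on all 6 arrays and PAX2 on 1. All 4 mitotic markers (CCNB1, CDC20, PLK1 and AURKA) were detected on all arrays, and none of the 5 listed markers of other cells that the array held (blood, liver and connective tissue) was detected on any. STAU1, whose tagged protein was precipitated, gave signals of 2499, 3246 and 2758 in the control IP and 2845, 1857 and 3130 in the Stau1 IP. These overlapped, and a signal from precipitated RNA does not test how much protein was made. By the paper's western blot there was less tagged protein than endogenous Stau1. STAU1 was detected on 5 arrays and has bead numbers that are not whole, which is explained below.

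Stau1 IP array 2 stood apart from the other arrays of its group. Normalized log2 signals of the 44 F-box and Kelch-like targets that all 6 arrays detected had a Pearson correlation of 0.992 between Stau1 IP arrays 1 and 3. It was 0.873 between Stau1 IP arrays 1 and 2 and 0.882 between arrays 2 and 3. With control IP arrays 1, 2 and 3, Stau1 IP array 2 correlated at 0.833, 0.846 and 0.899, so that only control IP array 3 exceeded its own group. Control IP array 2 correlated at 0.967 and 0.963 with Stau1 IP arrays 1 and 3. It correlated at 0.962 with each of control IP arrays 1 and 3, which correlated at 0.940 with each other. Over all 9884 targets detected on 6 arrays, Stau1 IP array 2 correlated at 0.962 and 0.977 with control IP arrays 1 and 3. With Stau1 IP arrays 1 and 3 it correlated at 0.940 and 0.943. Control IP array 2 correlated there at 0.983 and 0.984 with Stau1 IP arrays 1 and 3, and at 0.977 and 0.982 with control IP arrays 1 and 3. The points of these correlations are genes of 1 array set and not independent replicates. Groups were kept as labelled, the arrays numbered 2 are given singly below, and the fold changes of named F-box and Kelch-like targets are given with and without them. Whether the arrays were exchanged was not tested.

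F-box and Kelch-like transcripts were readily measured in these precipitates. 44 of the 96 (45.8%) were detected on all 6 arrays, against 9884 (26.1%) of all targets, and 29 (30.2%) on none, against 22528 (59.5%). By family, 17 of 37 FBXO, 7 of 19 FBXL, 3 of 9 FBXW and 17 of 31 KLHL targets were detected on all arrays. The number of these targets detected was 52, 55 and 53 on control IP arrays 1 to 3 and 59, 46 and 57 on Stau1 IP arrays 1 to 3, so that Stau1 IP array 2 had the fewest of all.

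Each target is read by its own probes, so that signals of different genes are not compared, but their distance from the negative controls differed widely. FBXO31, which directs cyclin D1 to degradation after DNA damage, ran from 1073 to 1680. KLHL22, which removes PLK1 from kinetochores, ran from 1020 to 1888. At the other end FBXW7, the adaptor for cyclin E, MYC and Notch, lay between 104 and 138 and was detected on 1 array, while the negative controls had medians of 77.6 to 89.6. KLHL3, which acts on WNK kinases, lay between 90.3 and 117 and was detected on 1 array, so that changes in either transcript would hardly be visible.

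Detection did not follow brightness for all targets. A target can combine several probes, which shows as bead numbers that are not whole, and 39 of the 96 targets had such numbers on at least 1 array. Of the 30 targets with a signal above 200 on every array, 5 were detected on fewer than 6 arrays, and all 5 had fractional bead numbers. FBXW11 (beta-TrCP2, an adaptor for beta-catenin and I-kappa-B) was 1 of them, with signals of 581, 844 and 567 in the control IP and 789, 312 and 910 in the Stau1 IP but detection on 1 array. FBXL10, with signals between 980 and 1508, was detected on 4 arrays. Undetected is therefore not the same as absent for these targets.

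**Figure D1:**
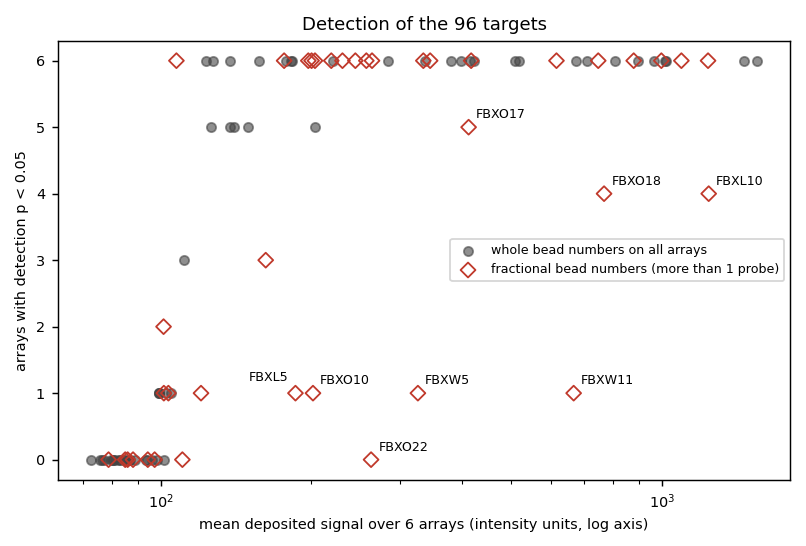
Number of arrays (of 6) with a detection p under 0.05 on the vertical axis against the mean deposited signal over the 6 arrays on a logarithmic horizontal axis, for the 96 F-box and Kelch-like targets. Filled circles are targets with whole bead numbers and open diamonds those with fractional bead numbers; FBXO22, FBXW11, FBXL10, FBXO18 and FBXO17, with signals above 200 on every array, are diamonds below 6 arrays.

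The first question was whether transcripts of these adaptors were enriched in the Stau1 IP over the control IP. At the threshold of the methods, a fold above 2.5 with an unadjusted p under 0.05, 0 of the 96 were enriched and 0 depleted, against 0.00264% (1 target, DLST) and 0% of all targets. The paper reported a much longer list of enriched transcripts from these precipitates at this fold, and why the lists differ was not tested. On arrays 1 and 3 of each group, 228 of all targets were enriched and 15 depleted, with 0 of the 96 in either direction. With all 6 arrays, 0 of the 96 passed an adjusted p under 0.05 (limma with Benjamini-Hochberg adjustment over all targets) in either direction, against 0% of all targets. At an unadjusted p under 0.05 (limma), 11 targets (11.5%) were higher and 9 (9.38%) lower in the Stau1 IP, against 3.67% and 5.15% of all targets. Since bright targets more often pass, the same was read over targets detected on at least 3 arrays. There 6 of 54 (11.1%) were higher and 9 (16.7%) lower, against backgrounds of 8.3% and 11.8%. The other 5 of the 11 higher targets were detected on fewer than 3 arrays. With median centring of the arrays in place of the spline normalization the split of 11 higher and 9 lower became 5 and 7, and with quantile normalization 12 and 7. Shares of all targets under these normalizations are not given here.

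The 96 targets had a median log2 fold change of 0.0091 with all 6 arrays and 0.029 on arrays 1 and 3, against 0.0024 and -0.0034 over all targets. Their log2 fold changes ran from -0.58 (KLHL9) to 0.74 (FBXL6). The family medians were 0.0053 for FBXO, 0.038 for FBXL, 0.019 for FBXW and -0.0094 for KLHL with all arrays, and -0.011, 0.077, 0.015 and 0.041 on arrays 1 and 3. Input RNA was not analysed here, so that more binding to Stau1 and more of the transcript in the cells cannot be told apart in any of these values. In the paper's own comparison of total RNA from such cells, few probes changed more than 2-fold. Those arrays were not read here for the 96 targets.

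In 23 of the 96 the 3 Stau1 IP arrays lay all on one side of the 3 control IP arrays. Of these 13 (13.5%) lay above and 10 (10.4%) below, against 6.57% and 7.94% of all targets. Among targets detected on at least 3 arrays it was 7 (13%) above and 10 (18.5%) below, against 8.92% and 13.2%.

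**Figure D2:**
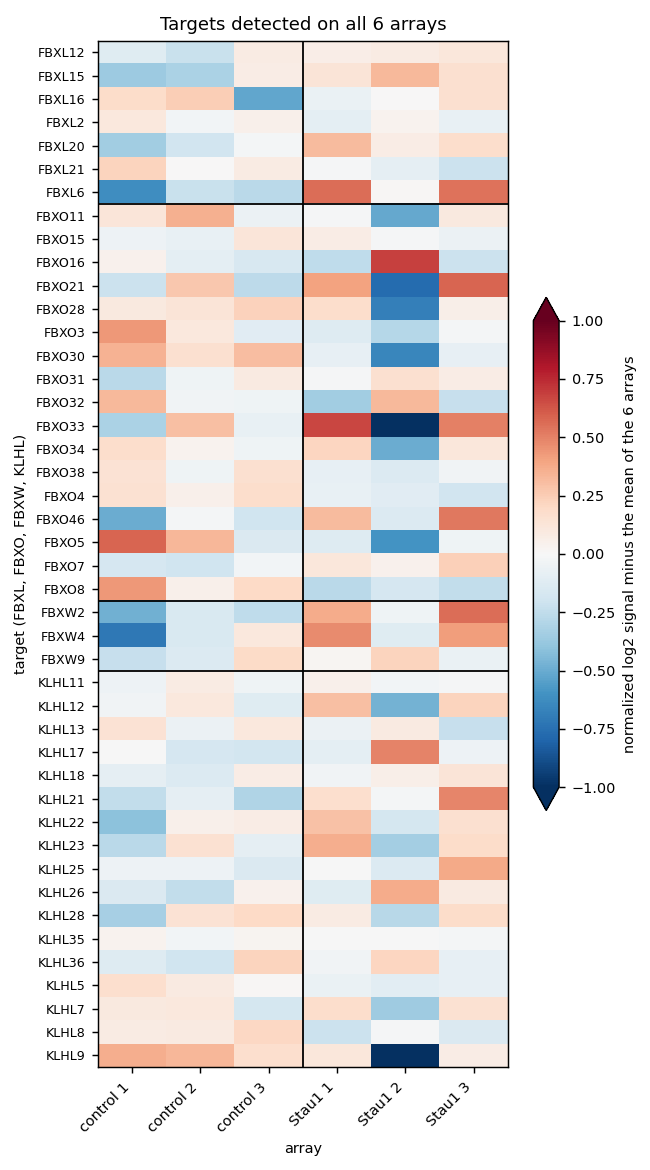
Normalized log2 signal of each array minus the mean of the 6 arrays, for the 44 F-box and Kelch-like targets detected on all arrays (rows, by family) on 3 control IP and 3 Stau1 IP arrays (columns). Red is above and blue below the target's own mean, with the colour scale ending at 1 log2 unit; the column of Stau1 IP array 2 holds the deepest blue fields, at FBXO33 and KLHL9.

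FBXL6, an F-box protein with leucine-rich repeats encoded on chromosome 8, had the largest difference of the 96. Its signals were 379, 655 and 538 on control IP arrays 1 to 3 and 1102, 611 and 1196 on Stau1 IP arrays 1 to 3. Stau1 IP arrays 1 and 3 lay well above every control array, while array 2 gave a deposited signal below that of control IP array 2 and passed it only after normalization. The log2 fold change was 0.74 (SE 0.19, n = 3 per group, limma adjusted p = 0.335), with a 95% interval of 0.27 to 1.22. Without the arrays numbered 2 it was 1.00 (SE 0.13, n = 2 per group, limma adjusted p = 0.0400).

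FBXW2, the WD-repeat adaptor known for degrading the placental factor GCM1 (chromosome 9), followed the same order of arrays. Signals were 299, 494 and 380 in the control IP and 688, 383 and 871 in the Stau1 IP. Again array 2 of the Stau1 IP gave the low value of its group and array 2 of the control IP the high one, and the groups lay apart only after normalization. The log2 fold change was 0.59 (SE 0.18, limma adjusted p = 0.413) with all arrays and 0.83 (SE 0.11, limma adjusted p = 0.0410) without the arrays numbered 2.

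In FBXO33 and FBXO21 the second Stau1 IP array lay farthest from the others of its group. FBXO33, an adaptor named for the cold-shock protein YB-1 (chromosome 14), had signals of 653, 1253 and 834 in the control IP and 1538, 311 and 1499 in the Stau1 IP. FBXO21, an adaptor of the regulator EID1 (chromosome 12), had 897, 1528 and 908 against 1577, 541 and 1971. For both the highest 2 signals came from Stau1 IP arrays 1 and 3 and the lowest from Stau1 IP array 2, so the groups overlapped. With all arrays the log2 fold changes were 0.06 (95% interval -1.19 to 1.31) and 0.14 (-0.85 to 1.13). On arrays 1 and 3 they were 0.78 (SE 0.11, limma adjusted p = 0.0451) and 0.73 (SE 0.07, limma adjusted p = 0.0247). With Stau1 IP array 2 alone left out they were 0.61 and 0.56, at limma adjusted p of 0.247 and 0.271.

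FBXO30, an F-box protein known from muscle wasting (chromosome 6), was lower in the Stau1 IP. Its signals were 250, 274 and 254 in the control IP and 200, 120 and 217 in the Stau1 IP, with no overlap and with array 2 lowest. The log2 fold change was -0.55 (SE 0.17, limma adjusted p = 0.439) with all arrays. Without the arrays numbered 2 it was -0.41 (SE 0.03, limma adjusted p = 0.0199).

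These 5 were the targets past an adjusted p of 0.05 on arrays 1 and 3 (limma, n = 2 per group). The 4 higher ones made up 4.17% of the 96, against 3.13% of all targets, and the 1 lower one 1.04%, against 2.15%. Among targets detected on at least 3 arrays the shares were 7.41% against 8.72% and 1.85% against 6.07%. These shares lay near or below the background.

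**Figure D3:**
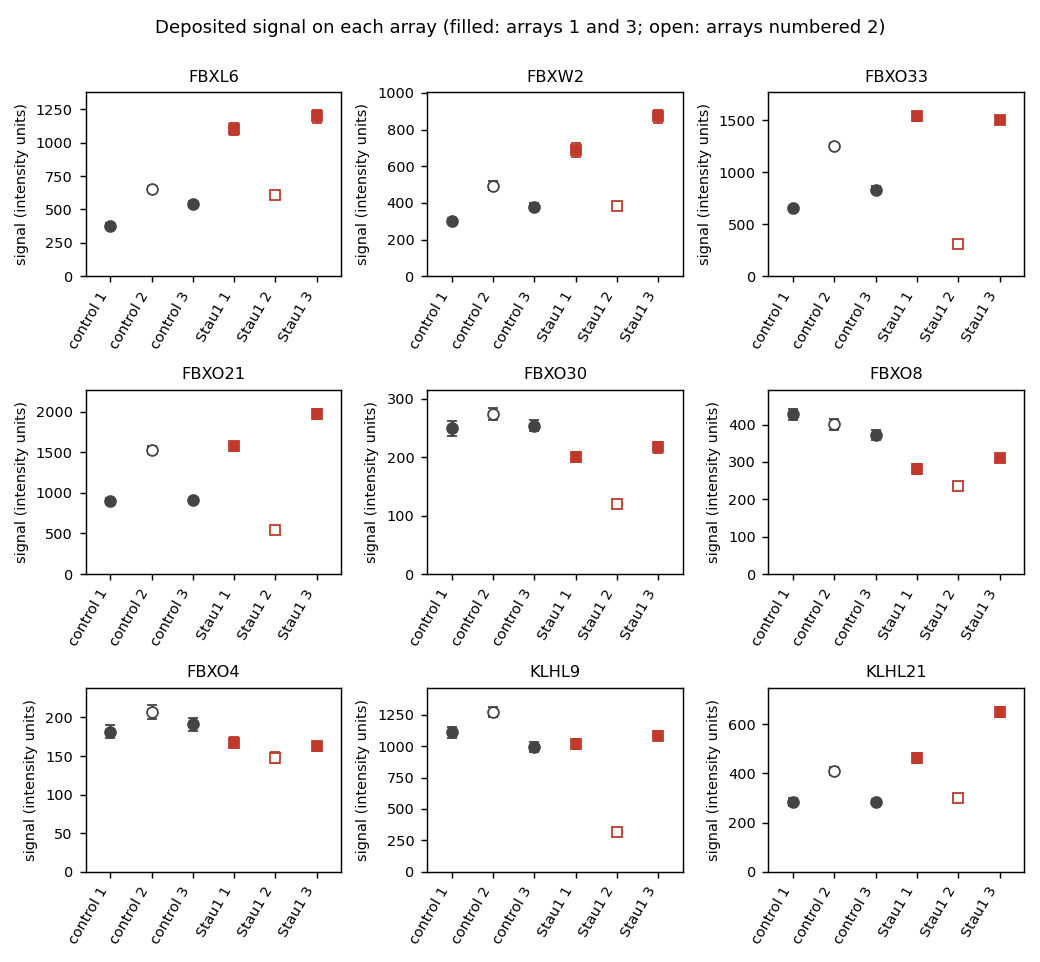
Deposited signal (intensity units, linear axis from 0) on each of the 6 arrays for 9 F-box and Kelch-like targets, with circles for the control IP, squares for the Stau1 IP, open symbols for the arrays numbered 2 and bars for the standard error between beads. FBXL6, FBXW2, FBXO33 and FBXO21 are highest on Stau1 IP arrays 1 and 3, KLHL9 is far lowest on Stau1 IP array 2, and FBXO8, FBXO4 and FBXO30 lie lower on all 3 Stau1 IP arrays.

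Further F-box transcripts lay higher on all 3 Stau1 IP arrays after normalization. FBXL15, which directs the ligase SMURF1 to degradation, had 680, 858 and 1012 in the control IP and 1119, 1206 and 1255 in the Stau1 IP, and its second Stau1 IP array sat with the others of its group. FBXO7, the Parkinson disease gene with a part in mitophagy, had 784, 927 and 923 against 1098, 941 and 1317. FBXL20, which acts on the synaptic protein RIM1, had 473, 667 and 657 against 914, 645 and 905. Their log2 fold changes were 0.41 (SE 0.13), 0.27 (SE 0.07) and 0.37 (SE 0.10), at limma adjusted p of 0.456, 0.335 and 0.371, and on arrays 1 and 3 they were 0.29, 0.28 and 0.43.

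FBXW5, the adaptor that limits the centriole protein SAS-6, had signals of 198, 276 and 289 in the control IP and 414, 362 and 417 in the Stau1 IP. It was detected on none of the control arrays and on 1 Stau1 IP array, and it has fractional bead numbers. The log2 fold change was 0.57 (SE 0.13, limma adjusted p = 0.273) with a 95% interval of 0.25 to 0.88, and 0.47 on arrays 1 and 3. Since its control level did not pass the detection threshold, the size of this difference is uncertain.

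FBXO46 and FBXW4 were higher on Stau1 IP arrays 1 and 3 only. FBXO46 had 645, 1123 and 864 against 1349, 858 and 1729, a log2 fold change of 0.47 (SE 0.21, limma adjusted p = 0.619). FBXW4, from the split hand and foot region, had 241, 483 and 498 against 727, 348 and 765, a log2 fold change of 0.51 (SE 0.27, limma adjusted p = 0.693). Both groups overlapped through the arrays numbered 2. On arrays 1 and 3 the values were 0.77 (limma adjusted p = 0.0718) and 0.75 (limma adjusted p = 0.339).

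Other transcripts lay lower on all 3 Stau1 IP arrays. FBXO8, which carries a Sec7 domain and acts on ARF6, had 427, 400 and 372 in the control IP and 281, 236 and 310 in the Stau1 IP. FBXO4, an adaptor named for cyclin D1 and the telomere protein TRF1, had 182, 207 and 191 against 167, 148 and 162. KLHL8, an adaptor of the synaptic protein rapsyn, had 400, 510 and 469 against 366, 329 and 424. In FBXO8 and FBXO4 the deposited signals did not overlap, and in KLHL8 the normalized ones did not. Log2 fold changes were -0.45 (SE 0.10), -0.25 (SE 0.05) and -0.25 (SE 0.07), with limma adjusted p of 0.274, 0.227 and 0.342, and on arrays 1 and 3 they were -0.57, -0.30 and -0.32.

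FBXL10, chosen here after its values were seen because it had the lowest p of the 96, had 1285, 1508 and 1327 in the control IP and 1066, 980 and 1278 in the Stau1 IP. It encodes KDM2B, an F-box protein that is also a histone demethylase and binds CpG islands. The groups did not overlap. The log2 fold change was -0.33 (SE 0.04, limma adjusted p = 0.130), and -0.31 without the arrays numbered 2. A separate target named KDM2B, counted below among the receptors outside the symbol rule, did not show this difference. It lay between 85.1 and 107, near the negative controls, and was detected on no array.

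Of the mitotic adaptors, Emi1 (FBXO5) had 360, 373 and 207 in the control IP and 232, 142 and 270 in the Stau1 IP, so the groups overlapped through control IP array 3. Its log2 fold change was -0.51 (SE 0.24, limma adjusted p = 0.639), with a 95% interval of -1.11 to 0.08, and it was -0.31 on arrays 1 and 3 and -0.34 without Stau1 IP array 2 alone. KLHL21 had 282, 409 and 284 against 463, 300 and 649. After normalization its 3 Stau1 IP arrays lay above the control arrays, at a log2 fold change of 0.42 (SE 0.14, limma adjusted p = 0.462) and of 0.60 (limma adjusted p = 0.0916) on arrays 1 and 3.

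KLHL9, which works as a pair with KLHL13, had 1109, 1271 and 994 in the control IP and 1018, 314 and 1084 in the Stau1 IP. Stau1 IP array 2 was far below the rest, and after normalization all 3 Stau1 IP arrays lay below the controls. The log2 fold change of -0.58 (SE 0.33, limma adjusted p = 0.738) became -0.17 (SE 0.08, limma adjusted p = 0.434) without the arrays numbered 2. KLHL13 had 341, 371 and 350 against 338, 289 and 318, a log2 fold change of -0.13 (SE 0.10, limma adjusted p = 0.812), and -0.27 (SE 0.07, limma adjusted p = 0.156) on arrays 1 and 3. KLHL22 had 1020, 1691 and 1545 against 1882, 1272 and 1888, a log2 fold change of 0.19 (SE 0.18, limma adjusted p = 0.869), and 0.40 (SE 0.18, limma adjusted p = 0.430) on arrays 1 and 3. With all arrays the 95% interval of KLHL22, from -0.27 to 0.64, spanned both directions.

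Among the other Kelch-like adaptors, KLHL12, which acts on Dishevelled and on the coat protein SEC31, had 528, 726 and 518 against 788, 326 and 814. It was higher than every control array on Stau1 IP arrays 1 and 3 and lower than every control array on array 2, for a log2 fold change of 0.04 (SE 0.22) with all arrays and 0.34 (SE 0.05, limma adjusted p = 0.0561) without those numbered 2. KLHL2, a close relative of KLHL3 that also acts on WNK kinases, had 159, 190 and 155 against 142, 101 and 147, a log2 fold change of -0.35 (SE 0.11, limma adjusted p = 0.444), and -0.23 on arrays 1 and 3. KLHL20, an adaptor of the kinase DAPK1, lay between 100.2 and 162 at a log2 fold change of -0.09, and KLHL7, a retinitis pigmentosa gene, between 137 and 245 at -0.02. Neither of these last values exceeded its standard error of 0.16 and 0.17, and on arrays 1 and 3 they were 0.10 and 0.20.

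The remaining F-box adaptors picked by role gave small values. FBXO11, which directs BCL6 to degradation, had 329, 505 and 298 against 344, 186 and 409, so that array 2 held both the highest control and the lowest Stau1 IP signal. FBXL12 ran from 337 to 519 and FBXL5, the iron-sensing adaptor of IRP2, from 141 to 209. The log2 fold changes were -0.28 for FBXO11, 0.17 for FBXL12, -0.13 for FBXL5, 0.15 for FBXO31, -0.09 for FBXW7, -0.08 for FBXW11 and 0.02 for KLHL3, with limma adjusted p between 0.646 and 0.973. On arrays 1 and 3 they were 0.0094 for FBXO11, 0.11 for FBXL12, -0.06 for FBXL5, 0.13 for FBXO31, -0.0078 for FBXW7, 0.30 for FBXW11 (limma adjusted p = 0.0727) and 0.09 for KLHL3.

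**Figure D4:**
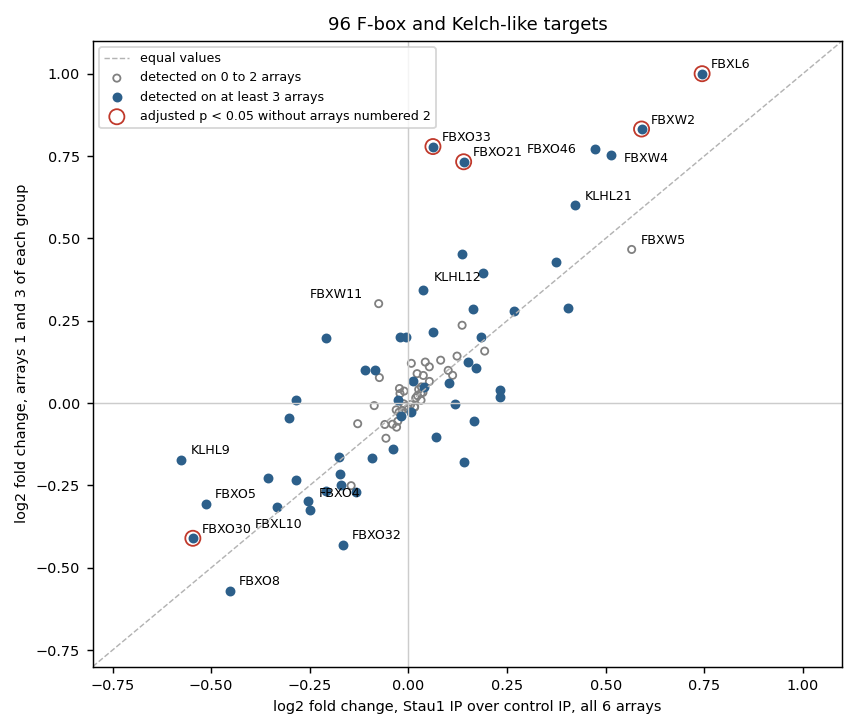
Log2 fold change of the Stau1 IP over the control IP with all 6 arrays (horizontal axis) against that on arrays 1 and 3 of each group (vertical axis), for the 96 F-box and Kelch-like targets; both axes share arrays, and the dashed line marks equal values. Filled points were detected on at least 3 arrays, and rings mark the 5 targets past an adjusted p of 0.05 on arrays 1 and 3, of which FBXO33 and FBXO21 lie near 0 on the horizontal axis.

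The arrays numbered 2 were also placed singly against the other arrays, over the 44 targets detected throughout. Stau1 IP array 2 was the lowest of the 6 arrays for 14 of them (31.8%) and the highest for 6, while over all 9884 detected targets it was lowest for 26.4% and highest for 28.3%. It lay nearer to the mean of control IP arrays 1 and 3 than to that of Stau1 IP arrays 1 and 3 for 23 of 44 (52.3%, against 59.8% of all 9884), and control IP array 2 lay nearer to the Stau1 IP mean for 19 of 44 (43.2%, against 47.2%). Of the 12 targets whose arrays 1 and 3 differed by more than 0.4 log2 units between the groups, Stau1 IP array 2 was nearer to the controls for 9 (75%, against 69.3% of the 3318 such targets in all), and control IP array 2 nearer to the Stau1 IP for 3 (25%, against 43%). FBXO16, named here after its values were seen, was 1 of the 6 among the 44 that were highest on Stau1 IP array 2. It had 253 on that array and 146 to 186 elsewhere.

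The partners of these adaptors were read from lists chosen by role. The cullin-RING core, with scaffold, RING, NEDD8 and signalosome genes, had 30 of 31 genes on the array. At an unadjusted p under 0.05 (limma), 10 were lower in the Stau1 IP and 0 higher, none passed an adjusted p of 0.05, and the median log2 fold change was -0.16. These 10 (33.3%) can be set beside the 5.15% of all targets and the 11.8% of targets detected on at least 3 arrays that were lower. NEDD8, the ubiquitin-like modifier of cullins, had 26727, 28634 and 21949 in the control IP and 14789, 20384 and 18344 in the Stau1 IP, without overlap (log2 fold change -0.49, SE 0.08, limma adjusted p = 0.206).

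SKP1A, the SKP1 that F-box proteins hold, had 1622, 1336 and 1369 against 801, 992 and 864, also without overlap. It was detected on no array and has fractional bead numbers, so that no fold is given for it. CUL1, the scaffold of the F-box ligases, had 845, 677 and 735 against 536, 682 and 578, at -0.32 (limma adjusted p = 0.766) and at -0.63 (limma adjusted p = 0.0497) on arrays 1 and 3. CUL3, the scaffold of the Kelch-like ligases, lay between 74.4 and 100.1, near the negative controls, and was detected on no array. On arrays 1 and 3, 4 of the 30 genes of this list were lower at an adjusted p under 0.05 (limma), namely CUL1, COPS6, UBE2F and the undetected SKP1A. In that fit 2.15% of all targets were lower, and 6.07% of those detected on at least 3 arrays. None of the list was higher, against 3.13% and 8.72%.

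Substrate receptors outside the symbol rule had 31 of 34 genes on the array, with 2 higher (6.45%) and 5 lower (16.1%) at an unadjusted p under 0.05 (limma) and a median of -0.02. Among all targets the shares were 3.67% and 5.15%, and among those detected on at least 3 arrays 8.3% and 11.8%. KEAP1, the Kelch-type sensor that holds NRF2 in check, was detected on 2 arrays and had 571, 801 and 640 against 985, 681 and 1132, a log2 fold change of 0.38 (limma adjusted p = 0.356) and 0.53 on arrays 1 and 3 (limma adjusted p = 0.0212). SKP2, the F-box adaptor for p27, had 1136, 1350 and 1248 against 1151, 956 and 1174, at -0.22 (limma adjusted p = 0.222). On arrays 1 and 3, KBTBD4, which was detected on no array, also passed an adjusted p of 0.05 (limma) as higher and RHOBTB3 as lower. This made 2 of 31 higher and 1 lower, against 3.13% and 2.15% of all targets. Among targets detected on at least 3 arrays the shares were 8.72% and 6.07%. KEAP1 and KBTBD4 have fractional bead numbers.

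Known substrates had 31 of 32 genes on the array, with 0 higher and 5 lower (16.1%) at an unadjusted p under 0.05 (limma) and a median of -0.09, beside the same shares of all and of detected targets. AURKB, the substrate of KLHL9, KLHL13 and KLHL21, had 17291, 13689 and 15716 in the control IP and 9177, 24330 and 10949 in the Stau1 IP. Stau1 IP array 2 was the highest of all and the other two Stau1 arrays the lowest, at a log2 fold change of -0.19 (limma adjusted p = 0.938) with all arrays and -0.68 (limma adjusted p = 0.0171) on arrays 1 and 3. PLK4 was lower and CTNNB1 and DVL1 higher on arrays 1 and 3 at an adjusted p under 0.05 (limma). With AURKB, 2 of 31 were higher and 2 lower in that fit, against 3.13% and 2.15% of all targets. Among targets detected on at least 3 arrays the shares were 8.72% and 6.07%. CTNNB1, beta-catenin, had 152, 256 and 146 against 318, 123 and 407, with Stau1 IP array 2 lowest and Stau1 IP arrays 1 and 3 highest.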

How the data were processed

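RNA from 3 control IPs and 3 Stau1 IPs was hybridised to 1 array each. The authors deposited signal intensities without normalization, the bead standard error (also an intensity), other columns with bead numbers, and a detection p-value. Bead numbers were used for the bead SD. No filter on dim targets was applied, and replicate depth is limited to 3 arrays a group.

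Background was estimated from the 200 targets whose detection p lay nearest 0.5, and their median was subtracted. A variance stabilizing transformation was fitted to the bead SD over 500 bins, without the lowest 33.3% of signals, and a monotone spline with 10 knots mapped every array on control IP array 2. The scale is near log2 and understates changes of dim targets. Groups were compared with lmFit and eBayes (limma 3.58.1, mgcv 1.9.3, R 4.3.3) and Benjamini-Hochberg adjustment over 37879 targets. A fit on arrays 1 and 3 kept that normalization. Steps were tested on simulated data, and plots were drawn with matplotlib 3.10.9.

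The members and lists were chosen with earlier results of these data known. Named genes were those with a known role, the 10 largest changes among targets detected on at least 3 arrays, up to 5 a direction without overlap, and the 8 with the widest span. Alternatives were neqc, no background subtraction, shifted log2 values, quantile normalization, median centring, detection filters, a replicate block, the methods' t-test, a 2-fold threshold, and fits without single arrays or without both arrays numbered 2. The setting without background subtraction returned the main counts and tests nothing, since the offset fitted in the transformation takes up a constant shift. Total RNA was not analysed here. Probe sequences were not used here, and 1 target of the rule is not reported here by name.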

Additional observations from a re-analysis of the deposited data

How the results depend on the processing

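With 3 arrays a group, precision is limited by their number, and targets near the negative controls can miss a difference. Such targets can also enter the counts. FBXL14, FBXO42 and KLHL31, detected on no array, were higher at an unadjusted p under 0.05 (limma). In the main fit of all 6 arrays, 1 of all targets was enriched and 0 were depleted, unlike the much longer list of enriched transcripts in the paper. The counts were 3 and 6 with neqc, 46 and 30 with shifted log2 values, 5 and 10 at a 2-fold threshold, and 228 and 15 on arrays 1 and 3. Leaving out each array gave 0 to 97 enriched (97 without Stau1 IP array 2, 6 without control IP array 2) and 0 to 8 depleted. No F-box or Kelch-like target passed that threshold in any of these settings. With adjusted p, 5 passed on arrays 1 and 3, and 0 otherwise.

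At an unadjusted p under 0.05 (limma), the 11 higher F-box and Kelch-like targets became 6 with shifted log2 values, 5 with median centring, 6 when the fit was repeated on targets detected on at least 3 or on all 6 arrays and 17 on arrays 1 and 3. The 9 lower ones became 4 with shifted log2 values, 3 in the fit repeated on targets detected on all 6 arrays and 5 with the methods' t-test. Leaving out each array gave 6 to 15 higher and 5 to 11 lower, with the most in both directions without Stau1 IP array 2. On arrays 1 and 3 the 17 higher of 96 stood beside 3399 of all 37879 targets, and 12 lower beside 3139. Among targets detected on at least 3 arrays, 11 of 54 were higher and 12 lower in that fit, against 2883 and 2764 of 12774. For the other settings no shares of all targets are given here. The median log2 fold change was 0.049 over those detected on all 6 arrays and 0.029 on arrays 1 and 3. Why the counts moved was not tested.

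On arrays 1 and 3 the sign turned for FBXO11 (0.0094), FBXW11 (0.30), KLHL20 (0.10) and KLHL7 (0.20). With median centring it turned for FBXO33 (-0.030) and KLHL12 (-0.044). Leaving out each array gave -0.12 to 0.56 for FBXO21, -0.26 to 0.61 for FBXO33, -0.24 to 0.21 for FBXW11, -0.11 to 0.28 for KLHL12, -0.18 to 0.079 for KLHL20, -0.014 to 0.070 for KLHL3 and -0.11 to 0.15 for KLHL7. With the replicate number as a block, 0 targets were enriched against 1 without it, and all 30 named genes kept their sign and side of the threshold. Deviations of same-numbered arrays correlated at -0.46, -0.77 and -0.38. These values cannot decide whether the numbers pair the samples, since arrays exchanged between the groups could also make them negative. Whether arrays were exchanged was not tested.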
